A study of Mus musculus with 4 samples.

Results

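The comparison described here is that of p65-/- against p65+/+ fibroblasts recovered from tumours, 1 of the genotype contrasts that 4 Affymetrix arrays of the series allow. It uses 2 of the 4 arrays, 1 per genotype. All probe sets entered, and a gene's difference is the log2 signal of the p65-/- tumour array minus the log2 signal of the p65+/+ tumour array. The p65-/- tumour cells lack Rela, which encodes the NF-kB subunit p65, and the p65+/+ tumour cells carry it. Both began as mouse embryonic fibroblasts (MEFs) and were infected with the retrovirus pBabe-HRASG12V-Hygro, which carries an oncogenic form of Ras together with hygromycin resistance. They grew into tumours in SCID mice, which lack functional T and B lymphocytes. The tumours were digested with collagenase, and the cells were grown in DMEM with fetal bovine serum and kept in hygromycin for 2 weeks before RNA was isolated. The other arrays hold the p65-/- and the p65+/+ cells of the same Ras-transformed cultures before injection and are given for comparison. All 4 groups carry the Ras virus. How many MEF lines, mice and tumours each array stands for is not stated in the labels, so genotype, cell line and individual tumour cannot be told apart.

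Each group is a single array, which leaves no spread between replicates to test against. "Higher" and "lower" therefore state how the signals of 2 arrays compare. The signal is a linear brightness per probe set, a group of short probes for 1 transcript. Of 45037 probe sets, 34945 belonged to a single gene, which gave 18193 genes. A gene with several probe sets is represented by the one with the highest mean log2 signal. The floor of an array was its median signal, 92.7 in p65-/- and 92.5 in p65+/+ tumour cells. Genes below the floor on both tumour arrays were left out. Where 1 array was below, the floor replaced that signal, so that such a fold is a bound ("at least") and enters list medians as that bound. Calls of higher or lower begin at 2-fold. The tumour arrays were alike in depth of signal, with 13015 probe sets at 200 or more on the p65-/- and 13333 on the p65+/+ array. The p65-/- pre-injection array stood apart, with 11153 such probe sets against 13419 on the p65+/+ pre-injection array, and each pre-injection value below rests on it. The scanner intensity before any processing had a median of 79 on the p65-/- and 90 on the p65+/+ tumour array.

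NF-kB is a family of transcription factors that form dimers and are held in the cytoplasm by inhibitor proteins of the IkB family. Inflammatory cytokines and oncogenic Ras signalling can release them, and dimers with p65, which has a strong activation domain, switch on genes for cytokines, chemokines, matrix-degrading enzymes, survival factors and the inhibitors themselves. In fibroblasts the pathway is best known for the secretory response to tumour necrosis factor and interleukin 1. The targeted gene comes first, to check the labels. The signal of Rela was 209 in p65-/- against 1457 in p65+/+ tumour cells, and 214 in p65-/- against 1479 in p65+/+ cells before injection. It was thus 6.96-fold lower in p65-/- tumour cells, and its signal there was still above the floor. Its single probe set could not be placed inside or outside the deletion.

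The labelled cell type was checked against fibroblast markers. The intermediate filament gene Vim had a signal of 11619 in p65-/- against 10914 in p65+/+ tumour cells, and the motility-associated S100a4 8759.5 in p65-/- against 7549 in p65+/+ tumour cells. Collagen genes were bright on both arrays, with 10000.1 in p65-/- against 6367 in p65+/+ tumour cells for Col1a2, which was below 2-fold. Col1a1 was 2.91-fold higher and Col3a1 2.05-fold lower. The receptor gene Pdgfrb was level at 883 in p65-/- against 869 in p65+/+ tumour cells, whereas the surface markers Pdgfra and Thy1 were 4.01-fold lower and 2.43-fold lower, and Fap was under the floor on all 4 arrays. Markers of other cells a tumour can hold were counted against the floor. Of all 18193 genes, 11463 reached it in p65-/- and 11311 in p65+/+ tumour cells. Of 20 macrophage markers, 6 were above the floor in p65-/- and 4 in p65+/+ tumour cells, against 4 in p65-/- and 3 in p65+/+ cells before injection. Their summed signal was 1746 in p65-/- and 2036 in p65+/+ tumour cells, and the defining genes Cd68, Adgre1, Itgam, C1qa, C1qb and C1qc were under the floor on all 4 arrays. Of this list the receptor gene Cd14 had 219.8 in p65-/- against 809 in p65+/+ tumour cells, and the adaptor gene Tyrobp 278 in p65-/- against 62.2 in p65+/+ tumour cells. Of 16 endothelial markers, 5 were above the floor in p65-/- and 4 in p65+/+ tumour cells, and Cdh5, Tek and Tie1 were under it on all arrays. Lymphocyte and granulocyte markers counted 6 of 14 above the floor on each tumour array, and muscle and fat cell markers 6 in p65-/- and 7 in p65+/+ of 13. Keratin and epithelial genes counted 17 of 33 above the floor in p65-/- and 10 in p65+/+ tumour cells, with the same counts before injection. Their summed signal was 6127 in p65-/- and 2725 in p65+/+ tumour cells. In RNA from a mixed population, fewer cells of a type and less RNA per cell cannot be told apart. The Y-linked gene Eif2s3y had a signal of 229 in p65-/- against 9.86 in p65+/+ tumour cells, and of 34.7 in p65-/- against 6.87 in p65+/+ cells before injection. The other Y-linked genes measured, Kdm5d and Uty, and the X-inactivation gene Xist were under the floor in both tumour samples.

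Of 11977 genes compared, 655 (5.47%) were lower and 317 (2.65%) higher in p65-/- than in p65+/+ tumour cells, and the median difference was 0.01 on the log2 scale. Together they made up 8.12% of the genes compared. The counts of each gene list below are to be read against these shares of 5.47% lower and 2.65% higher. At 4-fold there were 121 lower and 58 higher genes, and at 8-fold 39 lower and 20 higher. The p65-/- signal was under its floor for 131 of the lower genes, and the p65+/+ signal was under its floor for 100 of the higher genes. Where a gene had several probe sets, they can be set against each other as a technical check. Among 5349 genes with 2 or more probe sets compared, all were lower for 167 (3.12%) and all were higher for 66 (1.23%), and 1 gene had a probe set on each side of 2-fold. The standard deviation of log2 differences between probe sets of a gene was 0.32, a spread within the same pair of arrays and not between cultures.

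**Figure D1:**
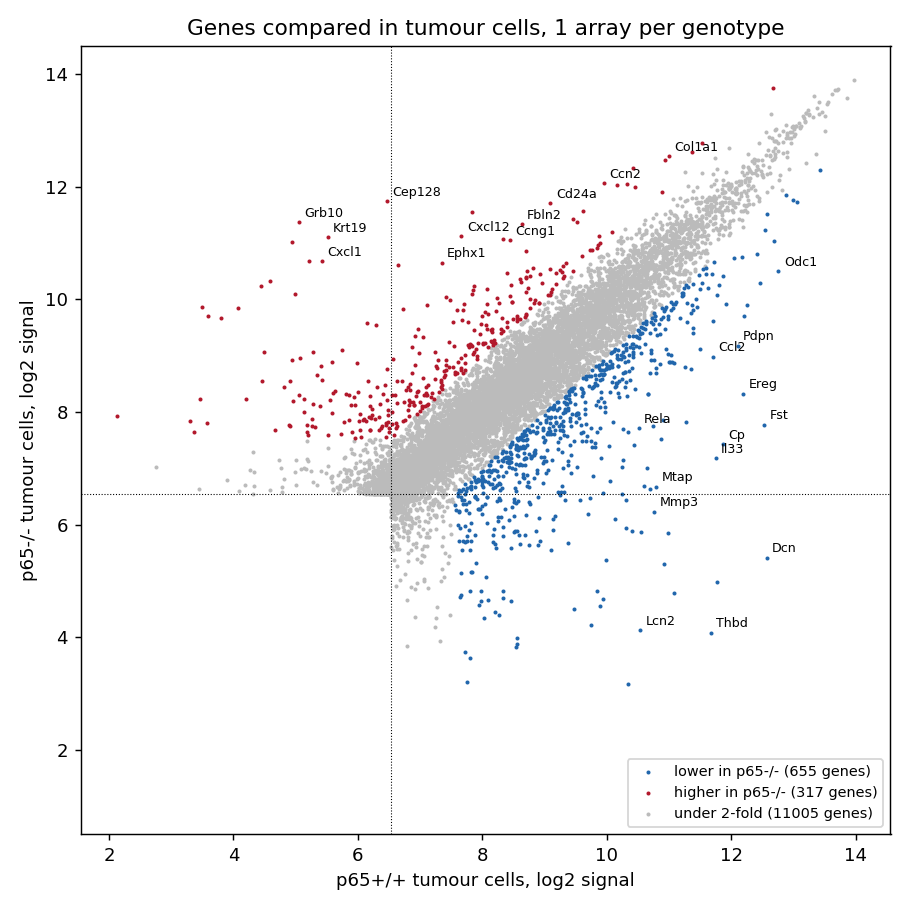
Log2 signal of each gene compared, p65-/- tumour cells on the vertical axis and p65+/+ tumour cells on the horizontal axis, with the floor of each array as dotted lines. Blue points are the 655 lower genes, red points the 317 higher genes and grey points those under 2-fold. The lower genes reach further from the diagonal at high p65+/+ signal, as with Fst and Dcn, while Grb10, Krt19 and Cxcl1 lie under the p65+/+ floor.

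Genes that NF-kB is known to switch on were mostly lower in p65-/- tumour cells. Of the 29 members compared 17 (58.6%) were lower and 1 (3.45%) was higher, against 5.47% and 2.65% of all genes, and the median was -1.27 against 0.01. The members were chosen with earlier results of these data known, so the counts describe the list and do not test it. Il6, the cytokine of the acute-phase response, had a signal of 68.1 in p65-/- against 1124 in p65+/+ tumour cells, at least 12.1-fold lower. Mmp3, which encodes the matrix protease stromelysin, had 74.8 in p65-/- against 1738 in p65+/+ tumour cells, and Lcn2, which encodes an iron-siderophore binding protein, 17.4 in p65-/- against 1488 in p65+/+ tumour cells. They were at least 18.7-fold and at least 16.1-fold lower, and both p65-/- signals lay under the floor. Lif, a cytokine of the interleukin 6 family, was 4.36-fold lower, with 470.5 in p65-/- against 2049 in p65+/+ tumour cells. The acute-phase gene Saa3 was at least 3.38-fold lower, the superoxide dismutase gene Sod2 2.70-fold lower in 3 of its 4 probe sets, the pattern-recognition gene Ptx3 2.30-fold lower and the apoptosis inhibitor gene Birc3 2.53-fold lower in 1 of 2. Tnfaip2, a gene induced by tumour necrosis factor, had 211 in p65-/- against 951 in p65+/+ tumour cells and was 4.51-fold lower, whereas its signals before injection were close, at 488 in p65-/- against 598 in p65+/+ cells.

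The exception was Cxcl1, a neutrophil chemokine. Its signal was 1635 in p65-/- against 42.9 in p65+/+ tumour cells, so it was at least 17.7-fold higher, in all 3 of its probe sets. Before injection it was weak in both genotypes, at 99.7 in p65-/- against 51.8 in p65+/+ cells. Among the 11 targets below 2-fold, the differences ran from -0.71 for the chemokine gene Cxcl10 to 0.92 for the stress gene Gadd45b on the log2 scale. They included Myc at -0.31, the cyclin D1 gene Ccnd1 at 0.28, the survival gene Bcl2l1 at 0.04, the macrophage growth factor gene Csf1 at -0.09 and the adhesion gene Vcam1 at -0.17. Icam1, Cxcl2, Csf2, Mmp13, Traf1 and Nos2 were under the floor on both tumour arrays and could not be compared. Before injection 16 of 31 targets were lower and 1 higher, against 17.8% and 2.06% of all genes, and 14 were on the lower side in both states.

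**Figure D2:**
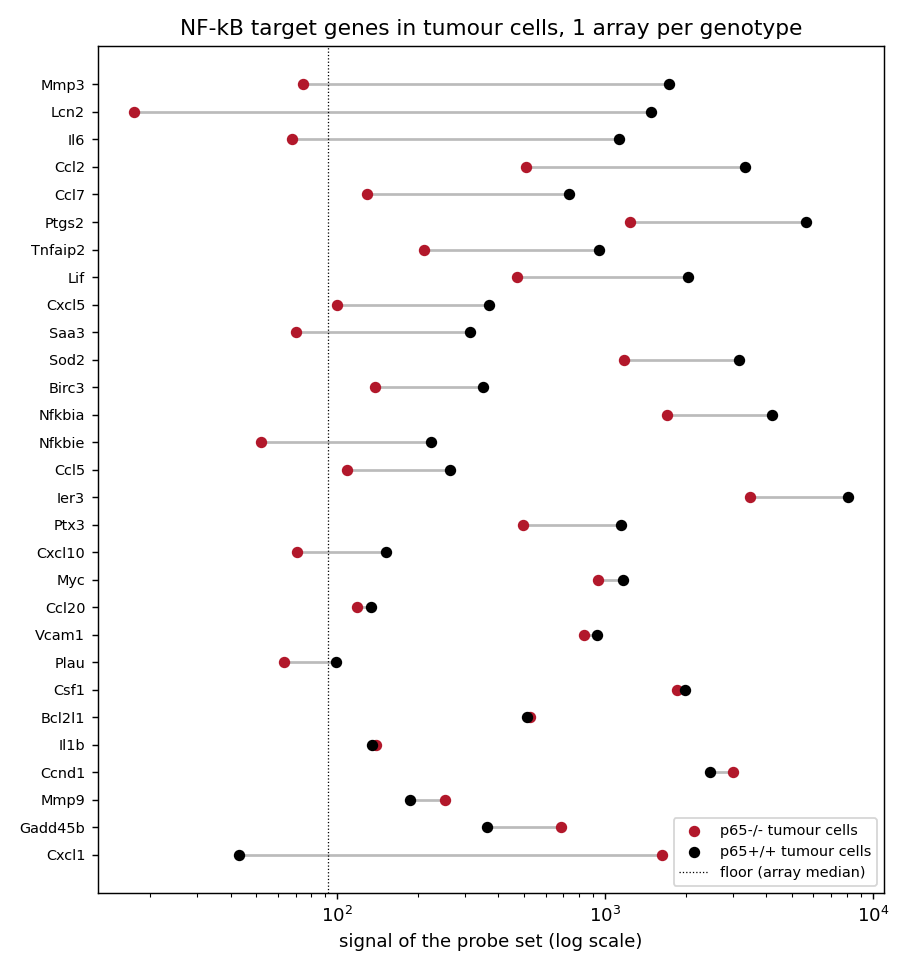
Signal of the 29 NF-kB target genes compared (log scale), with p65-/- tumour cells in red and p65+/+ tumour cells in black, from the largest decrease at the top to the increase of Cxcl1 at the bottom. The dotted line is the floor, and the red point lies left of the black one for most genes, with the pair nearly on top of each other for Csf1, Bcl2l1 and Il1b.

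The genes of the pathway itself had 4 of 12 lower and 0 higher (median -0.54). Besides Rela these were Relb, which encodes another activating subunit, by at least 2.55-fold, and the inhibitor genes Nfkbia and Nfkbie, at 2.47-fold and at least 2.42-fold. Both inhibitor genes are also counted among the target genes above. Nfkbia, the gene of IkB-alpha, was lower in all 5 of its probe sets and had 1697 in p65-/- against 4195 in p65+/+ tumour cells. The subunit gene Nfkb2 lay at -0.84 and the nuclear inhibitor gene Nfkbiz at -0.69, both below 2-fold. The kinase genes Ikbkb and Ikbkg lay at 0.11 and 0.05, and the feedback gene Tnfaip3, which encodes the deubiquitinase A20, at 0.58. Cytosolic ribosomal protein genes, a group of housekeeping genes, had 0 of 35 lower and 0 higher (median 0.03).

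The sequences before RefSeq transcription starts were searched on both strands for GGGA and TTCC with any 2 bases between them, a common form of the kB site bound by NF-kB, and for TGANTCA, the site of AP-1, the Fos and Jun dimer that acts in the Ras pathway. The search covered 250 bases upstream in RefSeq promoters of mouse GRCm38.p6, which were at hand for 9681 of the genes compared. This kB form occurred in 1.40% of all these promoters, in 9 of 495 (1.82%) of lower genes and in 2 of 232 (0.862%) of higher genes. Among genes past 4-fold it was in 2 of 89 (2.25%) of lower and 1 of 38 (2.63%) of higher genes. In the NF-kB target list 5 of 20 promoters held the kB form and 5 of 20 held the AP-1 form. TGANTCA occurred in 5.61% of all promoters, in 43 of 495 (8.69%) of lower and 16 of 232 (6.90%) of higher genes. Among genes lower by 4-fold or more it was in 15 of 89 (16.9%), and among genes higher by 4-fold or more in 4 of 38 (10.5%). The median GC content of the promoters was 60% for lower, 60.3% for higher and 59.9% for all genes. A match is a description of letters and not a bound site. The stretches below, each of 100 bases 5′ to 3′ on the strand of the gene, show the match in capitals for the cytokine gene Il6, the stem cell factor gene Kitl, the inhibitor gene Nfkbia and the interferon gamma receptor gene Ifngr2, all lower, for the exception Cxcl1, where 2 matches overlap, and for Mmp3, whose capitals mark TGANTCA. For Kitl the start used lies downstream of the outer end of the annotated gene, so that its stretch falls within the gene's span.
Il6, chr5:30013014-30013113, plus strand: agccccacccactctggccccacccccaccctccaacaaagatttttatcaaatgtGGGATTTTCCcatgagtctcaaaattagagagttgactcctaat
Kitl, chr10:100015624-100015723, plus strand: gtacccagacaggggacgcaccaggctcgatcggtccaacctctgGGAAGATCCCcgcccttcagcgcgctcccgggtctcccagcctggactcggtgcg
Nfkbia, chr12:55492648-55492747, minus strand: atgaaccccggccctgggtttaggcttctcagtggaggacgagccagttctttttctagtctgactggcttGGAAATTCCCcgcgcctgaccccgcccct
Ifngr2, chr16:91546939-91547038, plus strand: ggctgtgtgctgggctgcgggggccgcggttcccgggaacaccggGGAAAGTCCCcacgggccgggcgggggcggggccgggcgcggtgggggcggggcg
Cxcl1, chr5:90891130-90891229, plus strand: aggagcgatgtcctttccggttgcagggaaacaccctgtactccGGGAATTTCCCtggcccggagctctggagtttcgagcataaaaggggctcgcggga
Mmp3, chr9:7445722-7445821, plus strand: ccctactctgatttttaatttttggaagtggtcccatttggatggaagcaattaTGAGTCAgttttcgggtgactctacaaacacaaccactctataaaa
The match therefore stood before genes of both directions: Cxcl1 was at least 17.7-fold higher, while Kitl was at least 9.18-fold lower (in 2 of 4 probe sets) and Ifngr2 2.96-fold lower in both of its probe sets.

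Secreted signals of inflammation split by gene. Of 18 chemokine genes compared, 5 were lower and 3 higher (median -0.13). The monocyte attractants Ccl2 and Ccl7 had 506 in p65-/- against 3339 in p65+/+ tumour cells and 129.8 in p65-/- against 734 in p65+/+ tumour cells, 6.60-fold and 5.65-fold lower. The platelet and neutrophil chemokine genes Ppbp and Cxcl5 were at least 6.54-fold lower and 3.68-fold lower, and the T cell chemokine gene Ccl5 was 2.42-fold lower. Ccl5 went the other way before injection, with 297 in p65-/- against 104 in p65+/+ cells. Cxcl12, the ligand of the receptor Cxcr4, had 2224 in p65-/- against 203 in p65+/+ tumour cells, against 281 and 969 in the p65-/- and p65+/+ pre-injection cells. It was 10.98-fold higher, in 2 of its 3 probe sets, as was Cx3cl1, the membrane-bound fractalkine, at 4.31-fold in both of its probe sets. Of 25 chemokine and cytokine receptor genes, 5 were lower and 0 higher, but after quantile normalization only 1 of them, Ifngr2, kept 2-fold. The 5 were Ifngr2 at 2.96-fold, Il13ra1 at 2.13-fold, the scavenging receptor gene Ackr3 at 2.12-fold, the oncostatin M receptor gene Osmr at 2.02-fold and the interleukin 1 receptor gene Il1r1 at 2.01-fold. Osmr is the 1 gene with a probe set on each side of 2-fold. Of its 3 probe sets, 1 lay at -1.01 and another at 1.74 on the log2 scale, so its direction is unsettled. The signal transducer of the interleukin 6 family, Il6st, lay at -0.70 on the log2 scale.

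The alarmin cytokine gene Il33 belongs to the largest differences of all. It had a signal of 145 in p65-/- against 3443 in p65+/+ tumour cells and of 267 in p65-/- against 3476 in p65+/+ cells before injection, and was 23.7-fold lower. Of 14 complement and coagulation genes, 3 were lower and 0 higher. Thbd, which encodes thrombomodulin, a cofactor that turns thrombin to anticoagulant use, had 16.9 in p65-/- against 3249.9 in p65+/+ tumour cells and was at least 35.1-fold lower. Procr, the gene of the receptor of the protein C that thrombomodulin activates, was 2.57-fold lower, and Serpinf1, an inhibitor of vessel growth, 2.36-fold lower. Tissue factor, the starter of clotting encoded by F3, lay at -0.13 on the log2 scale.

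Genes of prostaglandin and lipid mediator synthesis had 5 of 23 lower and 1 higher (median -0.22). Ptgs2, the inducible cyclooxygenase, had 1245 in p65-/- against 5627 in p65+/+ tumour cells and was 4.52-fold lower in both of its probe sets. Ptges, which makes prostaglandin E2 downstream of it, had 57.7 in p65-/- against 2015 in p65+/+ tumour cells and was at least 21.7-fold lower in all 3 probe sets. The prostacyclin synthase gene Ptgis was 3.15-fold lower, the prostaglandin E2 receptor gene Ptger4 3.62-fold lower in 1 of 2 probe sets and Pla2g7, which breaks down platelet-activating factor, at least 6.91-fold lower. Plaat3, a phospholipase and acyltransferase gene, was at least 4.71-fold higher.

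The list of interferon-stimulated genes had 1 of 21 (4.76%) lower and 0 higher, against 5.47% and 2.65% of all genes. The lower one was the ubiquitin ligase gene Trim25 at 2.97-fold, in 2 of 3 probe sets. The list median was -0.18, and the membrane proteins of antiviral defence Ifitm2 and Ifitm3 lay at -0.62 and -0.86. Irgm1, an interferon-induced GTPase gene outside the list, was 5.69-fold higher. None of 12 MHC class I and antigen processing genes passed 2-fold in either direction (median 0.04); B2m, the light chain of MHC class I, was at -0.57. Among 12 surface ligands seen by immune cells, Nt5e, an ectoenzyme that makes adenosine, was 6.04-fold lower and Cd276 at least 3.47-fold higher. Of the TNF superfamily and its adaptors 1 of 23 (4.35%) was lower, the receptor gene Tnfrsf9 at 3.15-fold. On the higher side were 2 (8.70%), its ligand gene Tnfsf9 by at least 2.30-fold and the receptor gene Eda2r by at least 3.05-fold.

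Output genes of the Ras-MAPK pathway were lower or below 2-fold in p65-/- tumour cells. Of 29 compared, 8 (27.6%) were lower and 0 higher (median -0.62). Ereg, which encodes the EGF-type ligand epiregulin, gave 319.9 in p65-/- against 4659 in p65+/+ tumour cells, and was 14.6-fold lower. The negative feedback genes Dusp6 and Dusp5, phosphatases of the ERK kinases, had 460.1 in p65-/- against 1841 in p65+/+ tumour cells and 371 in p65-/- against 1267 in p65+/+ tumour cells, and were 4.001-fold and 3.41-fold lower. Spry4, an inhibitor of receptor tyrosine kinase signalling, was at least 8.94-fold lower in 2 of its 4 probe sets. The immediate early transcription factor gene Egr1 was 3.11-fold lower, the stress-kinase phosphatase gene Dusp1 3.06-fold lower, the survival gene Ier3 2.33-fold lower and the growth factor gene Hbegf 2.08-fold lower. Ier3 is also counted among the lower NF-kB target genes above. Further members below 2-fold included the AP-1 subunit gene Fosl1 at -0.91, the urokinase receptor gene Plaur at -0.98 and the inhibitor genes Spred1 and Spry2 at -0.98 and -0.90. Egr3 at 0.10, Dusp4 at -0.08 and Hmga2 at -0.14 were near 0. Before injection only 3 of 30 members were lower and 2 higher, with 17.8% of all genes lower in that state. The level of the introduced Ras was not examined here.

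Growth factors and receptors of the EGF, FGF, PDGF and VEGF families had 8 of 35 lower and 2 higher. The ligands on the lower side were Ereg, Hbegf, Kitl, which had 88.9 in p65-/- against 851 in p65+/+ tumour cells, the hepatocyte growth factor gene Hgf by at least 5.90-fold in 2 of 3 probe sets, the glial factor gene Gdnf at 2.82-fold, and the keratinocyte growth factor genes Fgf7 and Fgf10 at 2.20-fold and at least 2.86-fold. Pdgfra, the receptor of platelet-derived growth factor A, had 415 in p65-/- against 1662 in p65+/+ tumour cells and was lower in all 3 of its probe sets. On the higher side stood the ligand gene Pdgfd at 3.51-fold and the VEGF and semaphorin co-receptor gene Nrp1 at 2.09-fold. Nrp1 was on the other side before injection, with 48.5 in p65-/- against 736 in p65+/+ cells.

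The TGF-beta, activin and BMP pathway had 7 of 43 lower and 4 higher (median -0.01, and 0.10 after quantile normalization). Fst encodes follistatin, which binds and neutralises activins. Its signal was 218 in p65-/- against 5908 in p65+/+ tumour cells, but 466 and 743 in the p65-/- and p65+/+ cells before injection, and it was 27.05-fold lower in tumour cells, in both of its probe sets. The lower genes further held the ligand gene Bmp4 at 4.08-fold, its antagonist gene Grem1 at 3.25-fold, the BMP modulator gene Bmper by at least 4.64-fold, the BMP target gene Id2 at 4.30-fold in both probe sets, the activin receptor gene Acvr1b at 3.15-fold in 1 of 2, and the latent TGF-beta binding gene Ltbp2 by at least 2.27-fold. The higher ones were Fstl3, a relative of follistatin, by at least 3.20-fold, the transcription factor gene Smad3 at 2.66-fold in 1 of 3 probe sets, the ligand gene Tgfb3 at 2.37-fold and the ubiquitin ligase gene Smurf2 at 2.13-fold in all 3. Pmepa1, a feedback inhibitor of TGF-beta signalling, had 1207 in p65-/- against 234 in p65+/+ tumour cells and was 5.16-fold higher in 2 of 3 probe sets.

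In the Wnt pathway 2 of 38 genes (5.26%) were lower and 6 (15.8%) higher (median 0.13), against 5.47% and 2.65% of all genes. Wnt5a, a ligand of the branch that does not act through beta-catenin, had 116 in p65-/- against 874 in p65+/+ tumour cells and was 7.55-fold lower in 2 of 3 probe sets. The secreted antagonist gene Dkk2 was 2.44-fold lower. The higher genes were the receptor gene Fzd2 at 2.32-fold in all 3 probe sets, the transcription factor gene Tcf7l2 at 2.39-fold in 2 of 4, the secreted modulators Sfrp5 at 2.72-fold and Dkk3 at 3.17-fold, the agonist gene Rspo2 by at least 2.99-fold and Ccn4, a secreted protein induced by Wnt, at 4.35-fold in both.

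Genes of insulin-like growth factor signalling had 1 of 17 lower and 4 higher (median 0.32). Grb10, an imprinted adaptor that damps insulin and IGF receptor signalling, had a signal of 2654 in p65-/- against 33.2 in p65+/+ tumour cells, and of 93.1 in p65-/- against 33.9 in p65+/+ cells before injection. It was at least 28.7-fold higher in all 3 probe sets. The insulin receptor substrate genes Irs1 and Irs2 were 2.52-fold and 3.61-fold higher, and the IGF-binding protein gene Igfbp4 2.02-fold higher in all 6 probe sets. Igfbp6, another binding protein gene, had 82.5 in p65-/- against 434 in p65+/+ tumour cells and was at least 4.68-fold lower, but it had 3044 in p65-/- against 182 in p65+/+ cells before injection, the opposite order.

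Notch, Hedgehog and Hippo pathway genes had 3 of 34 on each side. Ccn2, a matrix-associated growth factor that the Hippo effectors switch on, was 4.32-fold higher, with 4283 in p65-/- against 992 in p65+/+ tumour cells, while Ankrd1, known as a target of the same effectors, was 3.17-fold lower in both of its probe sets. The Hedgehog genes Smo and Gli2 were 2.03-fold and 3.10-fold higher, each in 1 of 2 probe sets, the Hedgehog co-receptor gene Gas1 was 2.92-fold lower in 2 of 3, and Notch2 2.50-fold lower in 1 of 2. Axon guidance genes had 8 of 46 lower and 3 higher. The lower ones included the repellent genes Slit2 and Slit3 at 2.99-fold and 2.47-fold, the semaphorin genes Sema3a, Sema5a, Sema6d and Sema7a by at least 6.08-fold, 3.45-fold, at least 3.17-fold and at least 4.43-fold, the netrin gene Ntn1 at 2.89-fold and Rgmb at 3.06-fold. Sema3c and Sema3e were 3.38-fold and 2.93-fold higher, and the receptor gene Plxna1 2.02-fold higher in 1 of 2 probe sets. Sema3e was higher in 2 of 4 probe sets and Sema6d lower in 1 of 2.

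**Figure D3:**
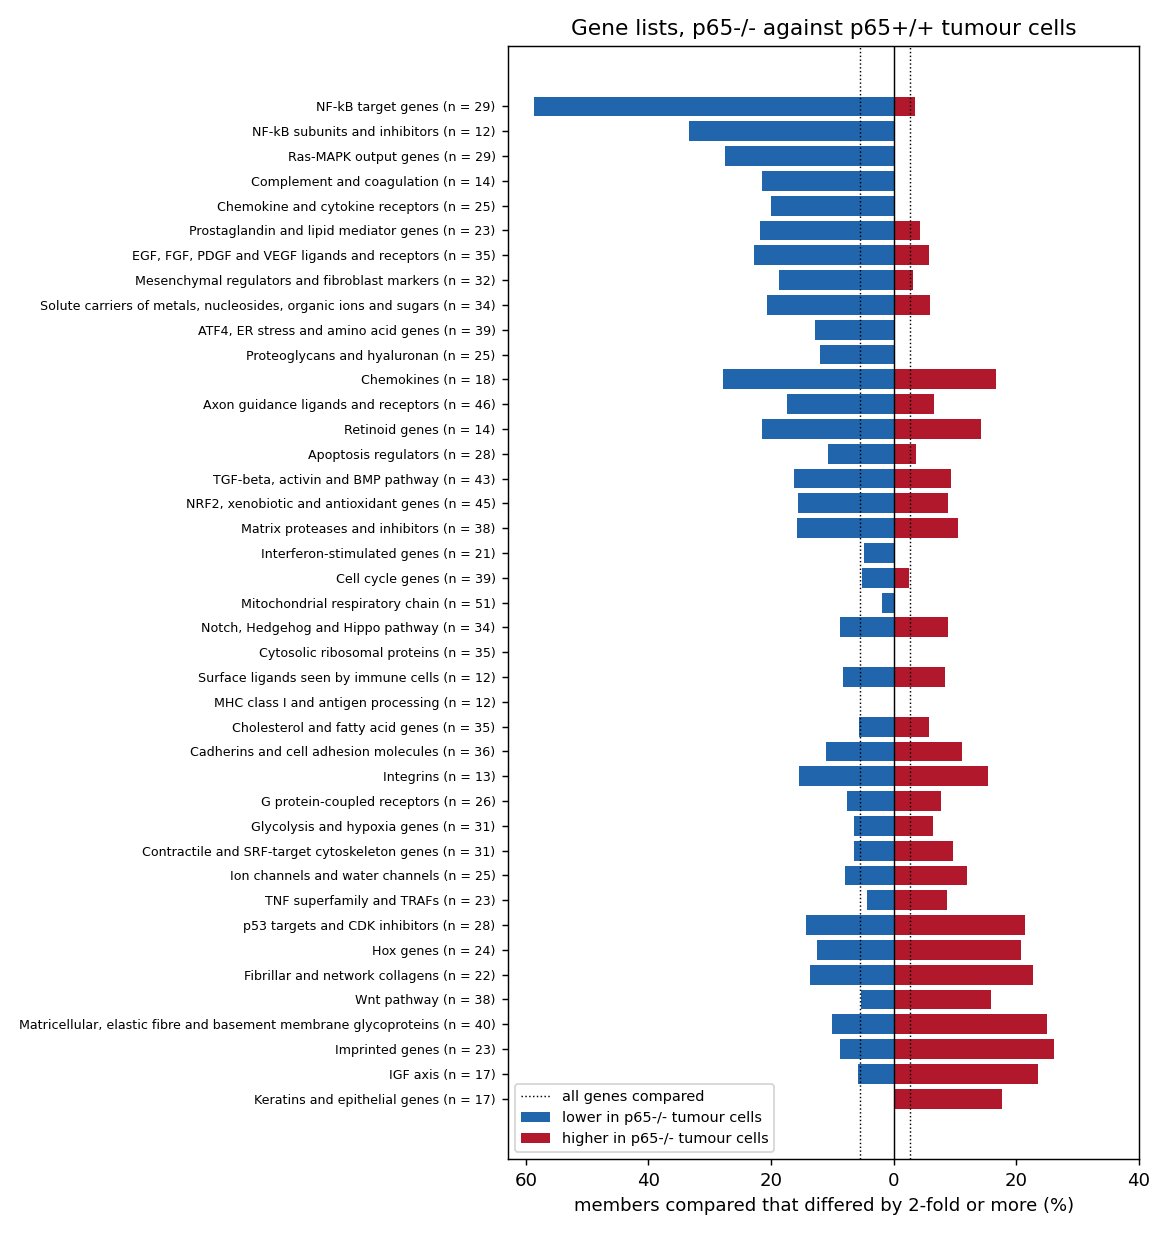
Percent of the members compared of each gene list, for lists with 12 or more, that were lower (blue, to the left) and higher (red, to the right) by 2-fold or more in p65-/- than in p65+/+ tumour cells, ordered by the percent higher minus the percent lower. The dotted lines mark the shares of all genes compared, 5.47% lower and 2.65% higher, and n is the number of members compared. NF-kB target genes reach 58.6% lower, the IGF axis and matrix glycoproteins lie toward the right, and ribosomal protein genes have no bar.

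The extracellular matrix differed in both directions and by class. Fibrillar and network collagens had 3 of 22 lower and 5 higher (median 0.52). Col1a1 had 5962 in p65-/- against 2046 in p65+/+ tumour cells and Col5a2 5689 in p65-/- against 1961 in p65+/+ tumour cells, and both were higher, by 2.91-fold and 2.90-fold, in both probe sets of each. Col5a1, Col6a3 and the basement membrane gene Col4a2 were 2.36-fold, 2.17-fold and 2.09-fold higher. Col12a1, a collagen that associates with fibrils, was 4.35-fold lower in both probe sets, the anchoring fibril gene Col7a1 2.19-fold lower and Col3a1 2.05-fold lower in 1 of 2.

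Proteoglycan and hyaluronan genes had 3 of 25 lower and 0 higher (median -0.04), and 22 were not past 2-fold. Dcn, which encodes decorin, had a signal of 42.6 in p65-/- against 6066 in p65+/+ tumour cells, and of 59.4 in p65-/- against 6673 in p65+/+ cells before injection. It was at least 65.4-fold lower in 1 of its 2 compared probe sets, and the other lay at -0.16 on the log2 scale. Lum, the gene of lumican, had 27.7 in p65-/- against 2151 in p65+/+ tumour cells, and was at least 23.2-fold lower. Both bind collagen fibrils and regulate their thickness. The large proteoglycan gene Vcan was 2.44-fold lower in all 3 probe sets.

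Matricellular, elastic fibre and basement membrane glycoproteins had 4 of 40 lower and 10 (25%) higher (median 0.26). The higher genes included Fbln2, a fibulin of elastic fibres, at 6.50-fold, Loxl3, an enzyme that cross-links collagen and elastin, at 6.15-fold, Smoc2 by at least 5.76-fold, the integrin ligand gene Npnt at 4.86-fold and Ccn2. The fibronectin gene Fn1 had 7017 in p65-/- against 2964 in p65+/+ tumour cells and was 2.37-fold higher in both probe sets, and the calcification inhibitor gene Mgp was 2.37-fold higher. The laminin genes Lamc1 and Lama5 were 2.09-fold and 2.11-fold higher, each in 1 of 2 probe sets, and Efemp1 at least 2.62-fold higher. On the lower side stood Tnc, the gene of tenascin C, with 956 in p65-/- against 4859 in p65+/+ tumour cells, Ecm1 at 5.20-fold, Thbs2, an inhibitor of vessel growth, at 2.65-fold and Emilin2 at 2.37-fold.

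Matrix proteases and their inhibitors had 6 of 38 lower and 4 higher (median -0.03, and 0.08 after quantile normalization). Besides Mmp3, the stromelysin gene Mmp10 was at least 2.42-fold lower and Adamts9 at least 2.18-fold lower. The lysosomal protease genes Ctsl and Ctsb were 2.17-fold lower in 1 of 2 probe sets and 2.08-fold lower in 4 of 5. The inhibitor genes split, with Timp1 2.73-fold lower and Timp3 2.68-fold higher, Timp3 in all 4 of its probe sets. The other higher genes were the cathepsin gene Ctsh by at least 5.77-fold in 1 of 2 probe sets, the aggrecan-cleaving Adamts5 at 2.68-fold and Adam8 by at least 2.59-fold.

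Adhesion genes also split. Integrins had 2 of 13 on each side, with Itgb7 at 3.58-fold and Itgbl1 by at least 2.81-fold lower. The laminin receptor genes Itga3 and Itga7 were 2.29-fold, in 1 of 3 probe sets, and at least 2.01-fold higher. Cadherins and other adhesion molecules had 4 of 36 on each side. Emb, a membrane glycoprotein of the immunoglobulin family, had 98.9 in p65-/- against 1653 in p65+/+ tumour cells and was 16.7-fold lower in both probe sets, and the protocadherin genes Pcdh7, Pcdh17 and Pcdh18 were 8.25-fold, at least 4.06-fold and 3.10-fold lower. Cdh11, a cadherin of mesenchymal cells, had 812 in p65-/- against 13.9 in p65+/+ tumour cells and was at least 8.77-fold higher in 1 of 2 probe sets. Cdh3, Fat1 and Jam3 were 2.46-fold, 2.89-fold and 2.19-fold higher. Among 31 contractile and cytoskeletal genes that the serum response factor controls, 2 were lower, the smooth muscle genes Cnn1 at 3.58-fold and Myl9 at 3.003-fold, and 3 higher, Tagln at 4.46-fold, Fhl1 at 6.64-fold in 1 of 2 probe sets and Itga7.

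Mesenchymal regulators and fibroblast markers had 6 of 32 lower and 1, Cdh11, higher (median -0.29). Twist2, a transcription factor gene of mesenchyme, had 519.8 in p65-/- against 2013 in p65+/+ tumour cells, against 1025 and 805 in the p65-/- and p65+/+ cells before injection, and was 3.87-fold lower. The transcription factor gene Foxd1 was at least 4.04-fold lower and the stem and stromal cell marker Cd34 5.15-fold lower. The regulators Snai1, Zeb1 and Prrx1 lay at -0.14, -0.33 and -0.96 on the log2 scale. Pdpn, which encodes the surface mucin podoplanin, had 578 in p65-/- against 4393 in p65+/+ tumour cells and was 7.60-fold lower.

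Of 24 Hox genes compared, which mark position along the body axes, 3 (12.5%) were lower and 5 (20.8%) higher, against 5.47% and 2.65% of all genes, and 16 were not past 2-fold. The 3 lower ones were all of the Hoxb cluster, Hoxb2 and Hoxb6 by at least 2.73-fold and at least 3.47-fold and Hoxb4 at 2.36-fold, while Hoxb3, Hoxb5 and Hoxb9 lay at -0.16, 0.19 and -0.09 on the log2 scale. Hoxd8, Hoxd10, Hoxd11 and Hoxd13 of the Hoxd cluster were at least 2.41-fold, at least 3.75-fold, at least 3.26-fold and at least 5.22-fold higher, while Hoxd9 and Hoxd12 lay at 0.95 and 0.01. For Hoxd8 this held in 1 of 2 probe sets. Hoxa11 was at least 9.99-fold higher, with 924 in p65-/- against 16.9 in p65+/+ tumour cells. In vertebrate embryos the late members of the Hoxa and Hoxd clusters pattern the limb and posterior trunk. Imprinted genes had 2 of 23 lower, Dcn and Impact, each in 1 of 2 probe sets, and 6 higher. Ndn, the gene of necdin, had 1282 in p65-/- against 24.1 in p65+/+ tumour cells and was at least 13.9-fold higher in 6 of 7 probe sets, and Peg3, Peg12, Slc38a4 and Sgce were at least 3.18-fold, at least 3.25-fold, 4.97-fold and 2.12-fold higher, along with Grb10. Of 14 retinoid genes 3 were lower and 2 higher, and the retinoic acid binding protein genes went opposite ways, Crabp1 3.95-fold lower and Crabp2 2.99-fold higher. The retinol dehydrogenase gene Rdh10 was 3.35-fold higher.

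Of 39 cell cycle genes compared, 2 (5.13%) were lower and 1 (2.56%) higher, near the 5.47% and 2.65% of all genes (median 0.11). The S-phase cyclin gene Ccne2 had 129 in p65-/- against 629 in p65+/+ tumour cells and was 4.88-fold lower, the mitotic motor gene Cenpe was 2.84-fold lower in both probe sets, and the replication licensing gene Cdt1 was 2.16-fold higher in both. The helicase subunit genes Mcm2, Mcm3 and Mcm5 lay at 0.66, 0.72 and 0.81 on the log2 scale, the proliferation marker Mki67 at -0.74 and Pcna at -0.01.

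Targets of p53 and inhibitors of cyclin-dependent kinases had 4 of 28 lower and 6 higher (median 0.22). Ccng1, a cyclin gene that p53 switches on, had 2125 in p65-/- against 347 in p65+/+ tumour cells and was 6.13-fold higher in all 3 probe sets. Phlda3, Cdkn1a, Zmat3, Trp53inp1 and Eda2r, likewise known p53 targets, were 4.20-fold, 3.24-fold, 2.76-fold, at least 3.04-fold and at least 3.05-fold higher. For Trp53inp1 this held in 1 of 2 probe sets. The 4 lower genes were the inhibitors Cdkn2a, with 14.2 in p65-/- against 372 in p65+/+ tumour cells, Cdkn2b, with 28.4 in p65-/- against 917 in p65+/+ tumour cells, and Cdkn2c, at 2.49-fold, and the kinase gene Plk3 by at least 3.25-fold. Cdkn2a and Cdkn2b share a locus on chromosome 4 that is taken up below. Apoptosis regulators had 3 of 28 lower, Birc3, Casp4 by at least 2.74-fold and Bcl2l2 at 2.10-fold, and 1 higher, Bcl2, at 2.29-fold in 1 of 3 probe sets.

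Among metabolic genes, the list of ATF4, endoplasmic reticulum stress and amino acid genes, ATF4 being a stress-response transcription factor, had 5 of 39 lower and 0 higher (median -0.29). Cth, which makes cysteine from cystathionine, had 183 in p65-/- against 1867 in p65+/+ tumour cells and was 10.2-fold lower, and the cystine carrier gene Slc7a11 was at least 3.17-fold lower in both probe sets. The glutathione-degrading Chac1, the phosphatase regulator Ppp1r15a and the transcription factor gene Atf5 were 2.34-fold, 2.19-fold and 2.04-fold lower. Antioxidant and xenobiotic genes had 7 of 45 lower and 4 higher (median -0.05, and 0.05 after quantile normalization). The extracellular superoxide dismutase gene Sod3 had 58.2 in p65-/- against 1493 in p65+/+ tumour cells, the metallothionein gene Mt2 434 in p65-/- against 2599 in p65+/+ tumour cells and the quinone reductase gene Nqo1 319.7 in p65-/- against 1621 in p65+/+ tumour cells, and they were at least 16.1-fold, 5.99-fold and 5.07-fold lower. The glutathione transferase genes Gsto1 and Mgst2 were 3.15-fold and 3.04-fold lower, whereas Gstm2 and Mgst3 were 2.51-fold and 2.16-fold higher, Mgst3 in 1 of 2 probe sets. Ephx1, an epoxide hydrolase of xenobiotic metabolism, had 1607 in p65-/- against 162 in p65+/+ tumour cells, and 1561 and 117 in the p65-/- and p65+/+ cells before injection. It was 9.90-fold higher in tumour cells, and the cytochrome P450 gene Cyp1b1 at least 8.29-fold higher in 2 of 3 probe sets.

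Glycolysis and hypoxia genes had 2 of 31 (6.45%) on each side, against 5.47% lower and 2.65% higher of all genes. The hypoxia factor gene Epas1 was 4.25-fold lower in 1 of 2 probe sets and the carbonic anhydrase gene Car12 2.96-fold lower. The oxygen sensor gene Egln1 and the collagen hydroxylase gene P4ha2 were 2.48-fold and 2.16-fold higher. Cholesterol and fatty acid genes had 2 of 35 (5.71%) on each side, the lower share again near that of all genes. The cholesterol exporter gene Abca1 was at least 3.96-fold lower in 1 of 2 probe sets and the fatty acid binding gene Fabp5 2.22-fold higher. Respiratory chain genes had 1 of 51 lower, Ndufa2 at 2.23-fold, and 0 higher. Solute carriers had 7 of 34 lower and 2 higher. The urea transporter gene Slc14a1 had 94.7 in p65-/- against 984 in p65+/+ tumour cells and was 10.4-fold lower in both probe sets. The iron carrier gene Slc11a2 was 3.16-fold lower in 3 of 4 probe sets and the zinc carrier gene Slc39a14 2.45-fold lower in 2 of 4. The thiamine carrier gene Slc19a2 was 3.25-fold higher.

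Enzyme genes outside the lists were also lower, and those named here were not counted as a group. Odc1, the rate-limiting enzyme of polyamine synthesis, had 1442 in p65-/- against 6912 in p65+/+ tumour cells and was 4.79-fold lower in all 3 probe sets, while before injection its signals were alike at 4015 in p65-/- against 4259 in p65+/+ cells. Mtap, which recycles the methylthioadenosine left by polyamine synthesis, had 102 in p65-/- against 1771 in p65+/+ tumour cells and was 17.3-fold lower in all 4 probe sets. Upp1, a uridine phosphorylase, had 170.3 in p65-/- against 1383 in p65+/+ tumour cells, but 892 and 1038 in the p65-/- and p65+/+ cells before injection, and was 8.12-fold lower. Arg2, the mitochondrial arginase that supplies ornithine, was at least 9.27-fold lower in both probe sets.

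Other decreases, of genes with varied roles, were as follows. Cp, which encodes the copper-binding ferroxidase ceruloplasmin, had 172 in p65-/- against 3716 in p65+/+ tumour cells and was 21.5-fold lower in 6 of 8 probe sets. Slpi, a secreted inhibitor of leukocyte proteases, had 103 in p65-/- against 1556 in p65+/+ tumour cells and was 15.1-fold lower. The cAMP phosphodiesterase gene Pde3b had 92.9 in p65-/- against 1213 in p65+/+ tumour cells and was 13.1-fold lower, and the lipid phosphatase gene Plpp3 was 7.96-fold lower in both probe sets. Ramp3, which modifies calcitonin-type receptors, was 11.01-fold lower and the orphan receptor gene Gpr149 at least 20.9-fold lower. The transcription factor gene Klf4 had 142 in p65-/- against 1228 in p65+/+ tumour cells and was 8.66-fold lower, and the homeodomain-only gene Hopx was 9.34-fold lower, each in both probe sets. Prxl2a was at least 37.6-fold lower, the mast cell protease gene Mcpt8 12.5-fold lower and the aldo-keto reductase gene Akr1c18 at least 14.6-fold lower.

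Among the large increases outside the lists, Tmem45a had 1565 in p65-/- against 99.8 in p65+/+ tumour cells and was 15.7-fold higher. Mospd1 had 3013 in p65-/- against 228 in p65+/+ tumour cells and was 13.2-fold higher, but the difference computed from the authors' deposited table was -0.31. The centriole gene Cep128 was at least 36.96-fold higher in 1 of 2 probe sets, with 3419.7 in p65-/- against 88.2 in p65+/+ tumour cells. Abcg2, a drug efflux pump, had 1207 in p65-/- against 21.8 in p65+/+ tumour cells, and was at least 13.05-fold higher. The glycoprotein gene Cd24a had 3335 in p65-/- against 546 in p65+/+ tumour cells and was 6.10-fold higher in all 3 probe sets, and Cd109, which binds TGF-beta at the surface, was 4.79-fold higher in both. The interferon-induced GTPase gene Irgm1 was 5.69-fold higher, the AMP deaminase gene Ampd3 5.43-fold higher, Psrc1 at least 11.8-fold higher and the tetraspanin gene Tspan6 at least 9.01-fold higher.

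Epithelial genes were represented by a handful of increases. Of 17 keratin and epithelial genes compared, 3 were higher and 0 lower. Krt19, a keratin of simple epithelia, had 2194 in p65-/- against 45.6 in p65+/+ tumour cells, and 338 and 49.8 in the p65-/- and p65+/+ cells before injection, and was at least 23.7-fold higher. Ezr, the gene of ezrin, which ties actin to the membrane, was 8.65-fold higher in 1 of 2 probe sets, and Krt80 at least 3.74-fold higher. The defining epithelial genes Cdh1, Epcam, Krt14 and Esrp1 did not accompany them and were under the floor on both tumour arrays. Of the members compared, 14 were not past 2-fold, and the list median was 0.11. More members were above the floor on the p65-/- tumour array, 17 against 10, but these counts were the same before injection. The summed signal was 6127 in p65-/- and 2725 in p65+/+ tumour cells, of which Krt19 alone made up 2194 and 45.6. Ion and water channels had 2 of 25 lower and 3 higher. The water channel gene Aqp1 was 6.88-fold higher and the calcium channel gene Cacna1a 3.35-fold higher in 1 of 2 probe sets. Its relative Cacna2d1 was 5.02-fold lower in all 4 probe sets. Of 26 G protein-coupled receptors and partners, Gpr149 and Ramp3 were lower and 2 were higher, the natriuretic peptide clearance receptor gene Npr3 by at least 17.6-fold in all 3 probe sets and the neuropeptide Y receptor gene Npy5r by at least 22.4-fold, with 2069 in p65-/- against 30.7 in p65+/+ tumour cells.

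The tumour difference was set beside the genotype difference before injection, which uses the other arrays. Of 11751 genes compared in both states, 394 (3.35%) were lower in both and 71 (0.604%) higher in both, while 56 (0.477%) passed 2-fold in opposite directions. The shared decreases were 60.2% of the tumour list and 17.6% of the longer pre-injection list, and the shared increases 22.4% and 27.4%. Of all genes compared, 17.8% were lower and 2.06% higher before injection, and 5.47% were lower and 2.65% higher in tumour cells. The shares of decreases and of increases thus have unlike baselines. Decreases with similar size in both states included Slpi, with 105 in p65-/- against 1574 in p65+/+ cells before injection, Mtap, with 126 and 1550.1, and Plpp3, with 187 and 2181 in the same order. Increases in both states included Phlda3, Loxl3, Ccn2, Cdkn1a, the LIM-domain genes Pdlim1 and Pdlim2, at 3.86-fold and 3.60-fold in tumour cells, and the sulfhydryl oxidase gene Qsox1 at 3.12-fold.

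Some differences were seen in tumour cells while the genotypes had been close before injection. All 4 signals were above the floor and the difference before injection was under 0.5 on the log2 scale for 91 of the 655 lower genes. The same held for 91 of the 317 higher genes. How many genes met these conditions whatever their tumour difference was not counted, so the share of all such genes is not given. The lower ones included Upp1, Odc1, Tnfaip2, Twist2, the deubiquitinase gene Otud1 at 3.90-fold and the ubiquitin ligase gene Rnf128 at 3.52-fold. The higher ones included Sertad4 at 5.69-fold, Ampd3, Pmepa1, Npnt, Cx3cl1 and the circadian repressor gene Bhlhe40 at 4.20-fold. Whether the 2 genotype differences differ from each other could not be tested with 1 array per group.

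Of the 56 genes in opposite directions, 40 were higher in tumour cells and lower before injection, and 16 the other way. Among all genes compared before injection, 17.8% were lower and 2.06% higher, so these counts start from unequal shares. Clu, which encodes the secreted chaperone clusterin, had 86.9 in p65-/- against 1261 in p65+/+ tumour cells, against 629 in p65-/- against 219.7 in p65+/+ cells before injection, and all 4 of its probe sets were lower in tumour cells. Mlycd, the gene of malonyl-CoA decarboxylase, had 95.02 in p65-/- against 633 in p65+/+ tumour cells, against 622 and 134 in p65-/- and p65+/+ cells before injection. In the other direction Gap43, a growth cone protein gene, had 2649 in p65-/- against 731 in p65+/+ tumour cells, and 324 and 812 in the p65-/- and p65+/+ cells before injection.

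**Figure D4:**
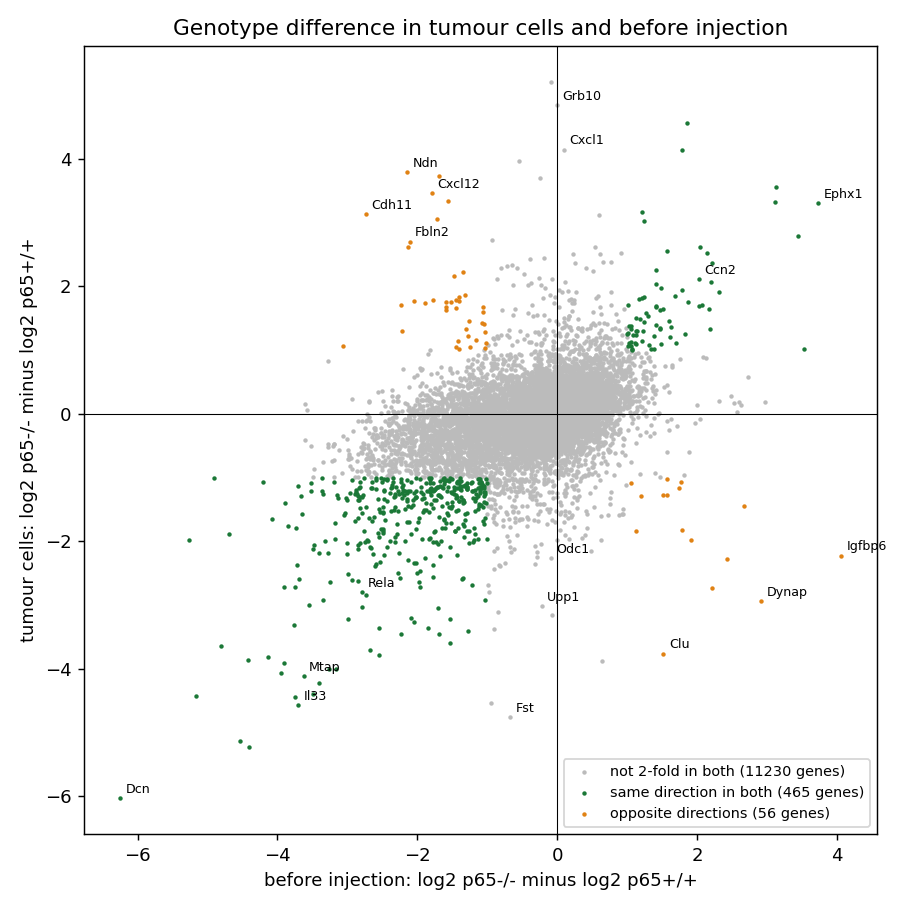
Genotype difference (log2 p65-/- minus log2 p65+/+, signals under the floor set to it) in tumour cells on the vertical axis and before injection on the horizontal axis, 1 point per gene compared in both. Green points are the 465 genes that passed 2-fold in the same direction, most of them in the lower left, and orange points the 56 in opposite directions. Upp1 and Odc1 lie near 0 on the horizontal axis and far down on the vertical axis.

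The lower genes were unevenly placed in the genome. Chromosome 13 had 61 of 424 genes lower (14.4%) and 2 higher, with a median difference of -0.32, and chromosome 14 had 52 of 405 (12.8%) lower and 4 higher (median -0.26). On chromosome 18 53 of 293 (18.1%) were lower and 2 higher, on chromosome 3 63 of 571 (11.03%) were lower and 18 higher, and on the X chromosome 39 of 351 (11.1%) were lower and 9 higher. In the opposite direction, chromosome 1 had 37 of 676 genes higher (5.47%) and 22 lower, and chromosome 8 had 30 of 661 higher (4.54%) and 11 lower. After quantile normalization the lower genes numbered 49 on chromosome 13, 36 on 14, 41 on 18, 50 on 3 and 31 on the X chromosome. The medians were then -0.23, -0.17, -0.19, -0.14 and -0.02 in the same order, so that of the X chromosome was close to no difference. Before injection chromosome 13 had the largest share of lower genes, 34.6%, followed by the X chromosome with 33.7%. These shares are of genes compared in both states, whereas 17.8% were lower among all genes compared before injection. Fst, described above, is among the chromosome 13 genes.

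**Figure D5:**
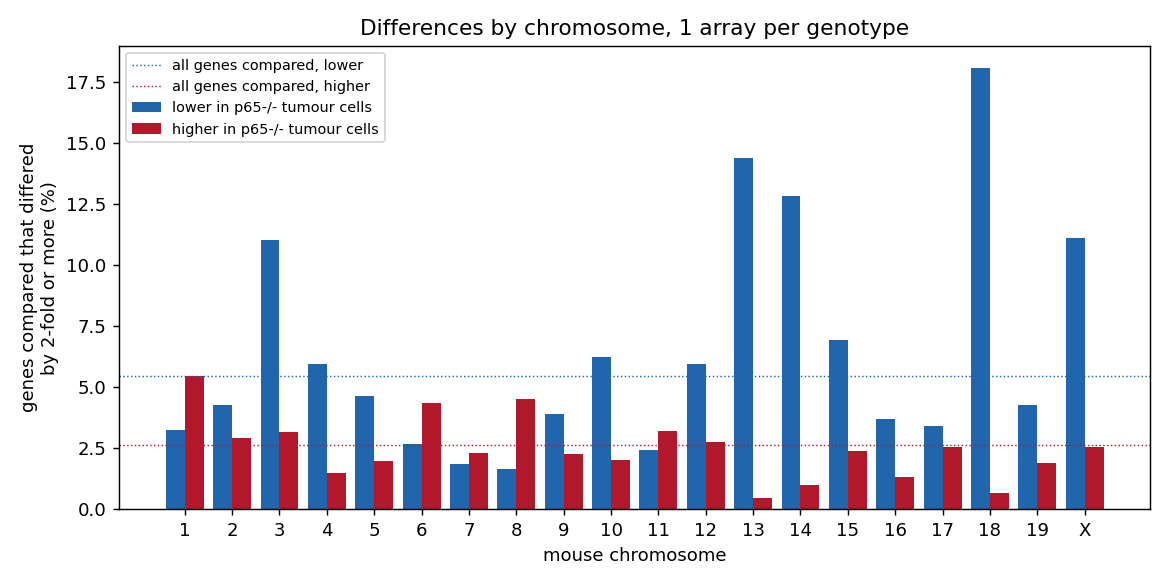
Percent of the genes compared on each mouse chromosome that were lower (blue) and higher (red) by 2-fold or more in p65-/- than in p65+/+ tumour cells, with the shares of all genes as dotted lines. The blue bars of chromosomes 3, 13, 14, 18 and X stand between 11.03% and 18.1%, above the dotted line at 5.47%.

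Runs of 3 or more neighbouring genes, in the order of the genes compared, that all passed 2-fold in the same direction numbered 9, all lower. In the run of Mtap, Cdkn2a and Cdkn2b at chr4:89137370-89311032 (GRCm38.p6), the differences were -4.12, -2.003 and -3.31 on the log2 scale in tumour cells and -3.62, -1.66 and -3.76 before injection. These genes encode the salvage enzyme described above and cell cycle inhibitors. The neighbours Dcn and Lum formed a run on chromosome 10 with the calcium pump gene Atp2b1, at -6.03, -4.54 and -1.36. Other runs held Lxn, Mfsd1, Ift80 and Smc4 on chromosome 3, Flrt2, Galc and Kcnk10 on chromosome 12, and Psmc6, Styx and Gnpnat1 on chromosome 14, each gene between 2.17-fold and 5.42-fold lower.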

How the data were processed

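Trizol-extracted RNA of 4 cultures, 6 ug each, was made into biotinylated cRNA and hybridised to 1 array per culture, per the labels' protocols. The values analysed were the linear intensities that the authors deposited for 45037 probe sets on each array. Probe summary and scaling are not given in the sources used here. A deposited table named for log2 ratios proved, when set against those signals, to divide the log2 level of an array by that of another and add a sign. This held within 0.02 for 84.6% of the 8525 probe sets that reached 300 on both tumour arrays, but for 33.1% of all, so the table served only as an alternative. Per the file headers, the deposited scanner intensities (1004004 cells on an array) were not normalized, and they served only to describe the arrays.

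Signals below 1 were set to 1 before log2, with no further normalization. Probe sets were named through the platform annotation of 2016, and 34741 of 34945 single-gene probe sets were matched by Entrez identifier to the RefSeq gene table of GRCm38.p6, which gave current symbols and positions. The 932 probe sets of several genes and the 9160 without a gene were left out. A gene took the probe set with the highest mean log2 signal over the 4 arrays, and suffixes that mark possible cross-hybridization were accepted only for genes without another probe set. Calls required a log2 difference of 1 in size, with the floor at each array's median.

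With 1 array per group no p-value was computed, and the number of arrays limits the precision. The 46 gene lists held 1574 measured entries from 1502 genes, and the members, lists and rules were chosen with earlier results of these data known. Named genes were Rela, then in each direction the largest differences with both arrays over the floor or with 1 under it, genes with all probe sets agreeing, genes shared with or absent from the pre-injection difference, all genes of opposite direction, and list members past 2-fold. Quantile normalization, scaling to the 75th percentile, a floor at the 70th percentile, both arrays over the floor, the mean of all probe sets and the authors' table were the alternatives. Scripts were tested on simulated data. The work used Python 3.11.15 with pandas 2.3.3, NumPy 2.4.6 and Matplotlib 3.10.9.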

Additional observations from a re-analysis of the deposited data

Results flagged for a closer look

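For 8 genes the difference between p65-/- and p65+/+ cells passed 4-fold in opposite directions in tumour cells and before injection. With 1 array per group the difference between the states was not tested, and the pre-injection values rest on the p65-/- array with fewer bright probe sets. Each value below is the log2 difference in tumour cells minus that before injection, with signals under a floor set to it. Among genes lower in p65-/- tumour cells and higher before injection, Igfbp6, an IGF-binding protein gene, gave -6.29 (-2.23 in tumour cells and 4.06 before injection). Dynap gave -5.86 (-2.94 and 2.91 in the same order), Mlycd, the malonyl-CoA decarboxylase gene, -4.95 (-2.74 and 2.22) and Glipr1 -4.69 (-2.27 and 2.42). Among genes higher in p65-/- tumour cells and lower before injection, the imprinted gene Ndn gave 5.93 (3.79 and -2.14), the cadherin gene Cdh11 5.87 (3.13 and -2.74), the fibulin gene Fbln2 4.81 (2.70 and -2.11) and Cd24a 4.74 (2.61 and -2.13). For Igfbp6, Dynap, Ndn and Cdh11 at least 1 of the arrays lay under its floor, so these values are bounds. The cause was not tested.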

How the results depend on the processing

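No paired analysis was possible because each group has 1 array, and each number in the array titles belongs to 1 genotype, where it joins the tumour to the pre-injection array, so that none pairs a p65-/- with a p65+/+ array. NF-kB target genes lower in p65-/- tumour cells numbered 17 in the values reported and 12 to 17 under the 6 alternatives. All genes lower numbered 655, and 535 after quantile normalization, 561 after scaling to the 75th percentile, 471 with the floor at the 70th percentile, 484 with the mean of all probe sets and 524 with both arrays over the floor. The authors' deposited table gave 1164 lower and 957 higher genes, so lower genes made up 54.9% of the calls instead of 67.4%, against 59.6% after quantile normalization. Higher genes numbered 317, and 187 with the floor at the 70th percentile, where fewer genes could be compared. Genes higher in both states numbered 71, against 122 after quantile normalization, 119 after scaling to the 75th percentile, 38 with the floor at the 70th percentile, 40 with both arrays over the floor and 321 in the authors' deposited table. Genes lower in both numbered 394, and 210 with both arrays over the floor, which leaves out every bound. Of 320 named genes, 308 kept 2-fold after quantile normalization, 310 after scaling, 245 of 317 with the higher floor, 261 of 313 with the mean of all probe sets and 212 of 223 in the authors' table. Sign changes were Mospd1 at -0.31 and Myh3 at -3.22 in the authors' deposited table, and Lrrc17 at -0.0323 with the floor at the 70th percentile. The cause was not tested. Signals near the floor limit what can be compared, and bounds may understate a difference.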
